A study of Mus musculus with 78 samples.

Results

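The 9 genes Sox7, Sox17, Sox18, Erg, Fli1, Ets1, Tal1, Klf2 and Klf4 encode DNA-binding proteins that endothelial cells, the lining of blood vessels, use to set and keep their identity. All probe sets whose only gene symbol in the array's annotation was 1 of these 9 were taken, which gave 17 of the 45101 probe sets on the array. Each of the 17 passed the filter on low signal, a signal above 331 on at least 6 arrays. Where a gene had several, its value is that of its brightest probe set over all arrays, and the other 8 probe sets are given beside it for some of the results. Of their 192 values over all comparisons, 27 were not called where the brightest probe set was, 6 were called where it was not, and in 0 both were called in opposite directions. In the mouse assembly GRCm38.p6 the genes lie at chr14:63943706-63950732 (Sox7), chr1:4490928-4497426 (Sox17), chr2:181669837-181671640 (Sox18), chr16:95359169-95586600 (Erg), chr9:32422204-32543432 (Fli1), chr9:32636241-32757820 (Ets1), chr4:115056426-115071755 (Tal1), chr8:72319062-72321654 (Klf2) and chr4:55527137-55532475 (Klf4).

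SOX proteins bind DNA through an HMG box, and Sox7, Sox17 and Sox18 form the F subgroup, which acts in arterial specification, lymphatic specification and vessel growth. Erg, Fli1 and Ets1 are ETS factors, which bind a GGAA core found in the regulatory DNA of most endothelial genes, and Tal1 is a basic helix-loop-helix factor of blood and endothelial precursors that works in a complex with E proteins, GATA factors, Lmo2 and Ldb1. Klf2 and Klf4 are zinc-finger factors that bind CACCC boxes, that rise in endothelium under steady shear stress through the MEK5, ERK5 and MEF2 pathway, and that hold endothelium quiescent. Klf4 is also a main factor of the outer layers of the epidermis, Klf2 of resting lymphocytes, Fli1 of platelets and leukocytes, Ets1 of lymphocytes, and Tal1 of red cell, platelet and mast cell precursors.

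RNA was taken from flank tissue of female athymic nude mice (strain Crl:NU(NCr)-Foxn1nu, 4 to 6 weeks old), which lack a thymus and so most T cells, and was hybridised to 78 Affymetrix Mouse Genome 430 2.0 arrays. In 9 groups an adenovirus carrying the growth factor gene VEGF-A164 (Ad-VEGF-A164) had been injected into the flank skin and the ears of the mice, and the groups were taken at day 5, 20 or 60 with no antibody (called untreated here), with G6 at 10 mg/kg or with DC101 at 20 mg/kg, both given into the peritoneum. DC101 is a rat antibody against the mouse VEGF receptor VEGFR-2. The labels speak of anti-VEGF receptor antibodies and name no target for G6. The control group, at day 0, had no injection in its labels, so that virus and VEGF cannot be told apart, and no group received an empty virus. Control flanks were at day 0 alone, so elapsed time also differs in each comparison with them and cannot be told apart from the injection. Groups held 8 arrays each, except DC101 at day 60 with 6, and no label says which animal an array came from, so 2 arrays of a group could be of the same mouse and p-values could be too low.

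Values are the deposited MAS5 signals as log2(signal + 16), called the level, and a change is the difference between 2 group means of the level. The fit was 1 limma model over all 10 groups and 26696 probe sets, and a change was called at a Benjamini-Hochberg adjusted p under 0.05 over all of these. The tissue was whole skin, so fewer endothelial cells and less RNA per cell cannot be told apart. As a yardstick, the mean level of 16 pan-endothelial genes (among them Pecam1, Cdh5, Tie1 and Egfl7) was taken on each array. Its lowest, median and highest values were 12.75, 13.05 and 13.31 in untreated flanks at day 5, 11.66, 12.74 and 13.73 at day 20 and 9.87, 10.55 and 11.94 at day 60, against 10.28, 10.78 and 11 in control flanks. Some arrays stood apart in these genes: untreated day 20 arrays 51 and 52 and untreated day 60 array 77 were high, the untreated day 60 array 79 was low, G6 day 5 arrays 13 and 14 and G6 day 60 arrays 86 to 88 were high for their groups, and DC101 day 60 arrays 93 and 94 were low in Klf2. Results that rest on them are given without them as well.

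**Figure D1:**
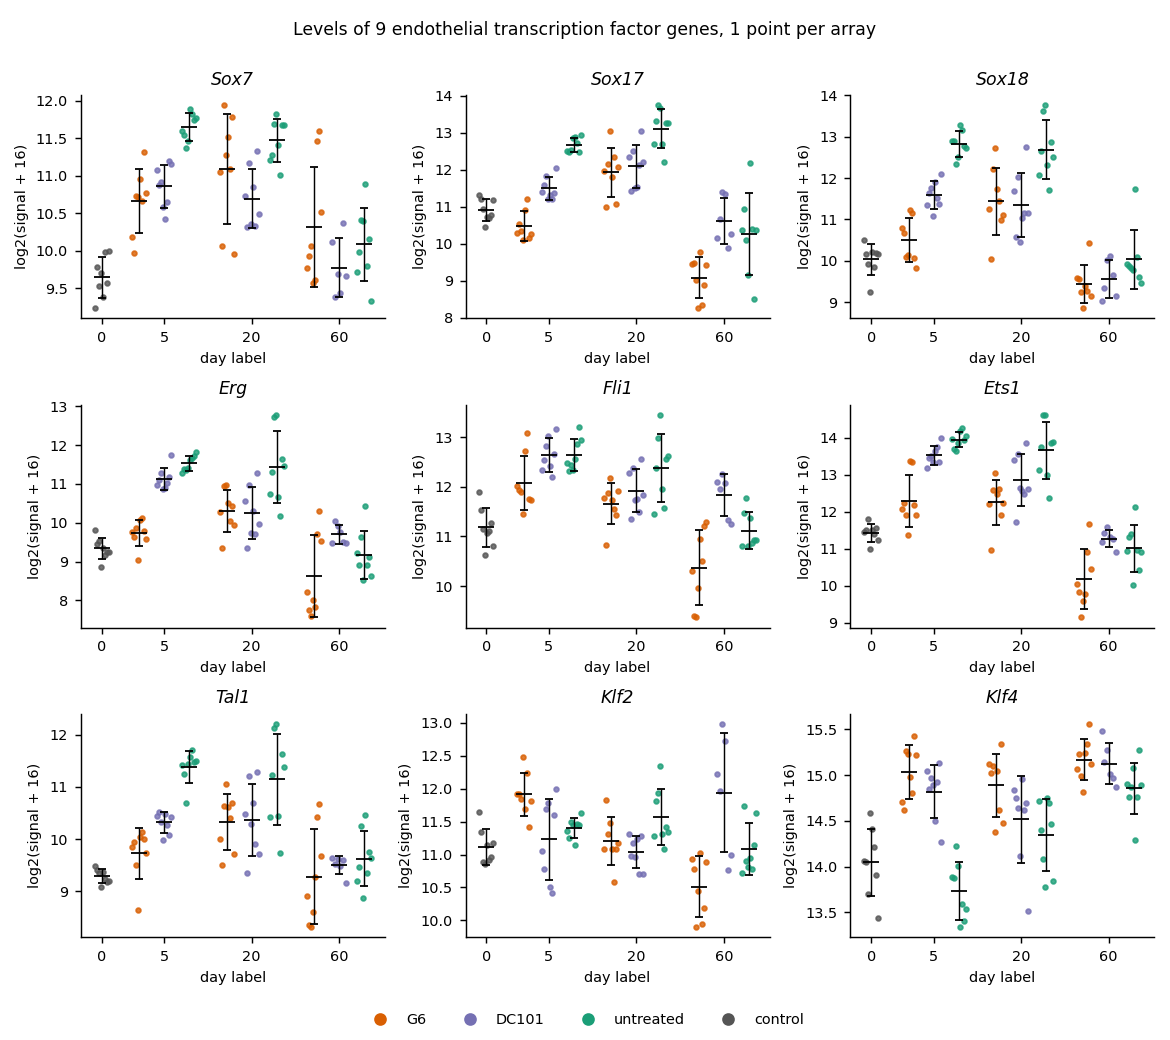
Level, as log2(signal + 16), of each of the 9 genes on every array (points) with the group mean and standard deviation, by treatment and day. Sox7, Sox17, Sox18, Erg, Fli1, Ets1 and Tal1 stood above the control flanks at days 5 and 20 in untreated flanks and near them at day 60, whereas Klf4 was lowest in untreated flanks at day 5, with a mean of 13.73.

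Promoter sequence was at hand for 4 of the 9 genes, as the 250 bases before a RefSeq transcript start in GRCm38.p6. The windows of Klf2, Klf4 and Tal1 are shown because Klf2 and Klf4 were the 2 genes not called in untreated flanks at day 5 and Tal1 was called lower with DC101 at day 5, and because Klf2 and Klf4 are known as targets of a common pathway. Capitals mark in Klf2 a match to the MEF2 site, which starts 118 bases before the transcript start, and the letters of a CACCC box on the other strand, 19 bases before it. Capitals mark in Tal1 the 4 ETS cores (GGAA on either strand). No match to the MEF2 site or the CACCC box was present in the Klf4 window.
Klf2, chr8:72318812-72319061, plus strand: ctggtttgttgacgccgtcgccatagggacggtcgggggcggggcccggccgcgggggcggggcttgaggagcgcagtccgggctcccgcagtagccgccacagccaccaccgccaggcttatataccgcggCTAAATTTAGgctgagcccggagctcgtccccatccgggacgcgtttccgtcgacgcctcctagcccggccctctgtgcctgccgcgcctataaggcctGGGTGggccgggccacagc
Klf4, chr4:55532476-55532725, minus strand: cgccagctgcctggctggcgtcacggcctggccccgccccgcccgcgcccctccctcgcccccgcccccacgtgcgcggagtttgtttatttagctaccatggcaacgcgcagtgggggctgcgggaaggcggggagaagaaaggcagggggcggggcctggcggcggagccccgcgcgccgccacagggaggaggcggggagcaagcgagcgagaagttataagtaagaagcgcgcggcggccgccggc
Tal1, chr4:115056176-115056425, plus strand: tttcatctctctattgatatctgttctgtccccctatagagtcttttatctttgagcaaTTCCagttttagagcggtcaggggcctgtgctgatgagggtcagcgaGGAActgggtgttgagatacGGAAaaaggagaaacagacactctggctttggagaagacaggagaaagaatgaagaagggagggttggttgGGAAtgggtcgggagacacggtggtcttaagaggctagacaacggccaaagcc

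The search covered both strands for 6 motifs, and the letters searched were GGAA for the ETS core, ACAAT for the SOX core, GATAA for GATA, CACCC for the CACCC box, CANNTG for the E-box, and the MEF2 site by its consensus. Of 32851 mouse promoter windows of this length, 93.4% held an ETS core, 27.7% a SOX core, 22.6% a GATAA, 52% a CACCC box, 66.2% an E-box and 2.92% a MEF2 site. An ETS core is thus in nearly every window, and its presence sets none of these genes apart. Of the 3 Erg windows, 1 held neither an ETS nor a SOX core, another held 4 ETS cores and 1 MEF2 match, and the remaining window held 2 ETS cores, 1 SOX core and 1 GATAA. A match says only that the letters are present, since binding was not measured.

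In untreated flanks at day 5, 7 of the 9 genes were higher than in control flanks, by 1.47 to 2.79 on the log2 scale, and none was lower, and every one of the 7 had no overlap between its 8 untreated and 8 control arrays. Of all 14718 genes tested, 52.4% changed and 27.7% were higher, and 11.8% of all probe sets lay wholly above the control arrays. The median change was 2.00 over the 9 genes and 0.05 over all genes. At the level of probe sets, 14 of 17 were higher, where 26.5% of all probe sets were, which are all 14 of the same 7 genes, and the 3 of Klf2 and Klf4 did not pass. Among the 14 is the dim Erg probe set 1425370_a_at, below the filter level on all 8 control and on 5 of 8 untreated arrays. It was tested only because of arrays in groups where it was high, so its call is no support.

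Sox18, which acts in lymphatic specification and in vessel growth, had lowest, median and highest levels of 12.34, 12.84 and 13.27 in untreated flanks at day 5, against 9.24, 10.16 and 10.50 in control flanks. The change of 2.79 (SE 0.28, adjusted p = 5.36e-13) was larger than that of the other 8 genes. Sox7, a factor of early endothelial and blood development, had 11.37, 11.67 and 11.89 in untreated and 9.24, 9.64 and 9.99 in control flanks, a change of 2.00 (SE 0.23, adjusted p = 2.83e-11). Arterial Sox17 showed 12.47, 12.63 and 12.92 in untreated flanks, against 10.45, 10.86 and 11.32 in control flanks, a change of 1.76 (SE 0.28, adjusted p = 2.53e-07). For these 3 genes the lowest untreated array lay more than 1 log2 unit above the highest control array.

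Ets1, which acts in endothelial migration and vessel sprouting, was at 13.64, 13.95 and 14.25 in untreated flanks at day 5, against 10.99, 11.48 and 11.81 in control flanks, and rose by 2.51 (SE 0.28, adjusted p = 1.21e-11). The other 3 Ets1 probe sets changed by 2.44, 1.22 and 0.56, and all 3 were called. Erg, which keeps endothelial junctions and identity, was at 11.29, 11.51 and 11.84 in untreated and 8.87, 9.31 and 9.82 in control flanks, a change of 2.20 (SE 0.29, adjusted p = 2.35e-09). Fli1, its close relative, was at 12.33, 12.53 and 13.22 in untreated and 10.63, 11.13 and 11.90 in control flanks and rose by 1.47 (SE 0.24, adjusted p = 3.97e-07), the smallest change among the 7. Tal1 was at 10.68, 11.45 and 11.72 in untreated flanks and at 9.09, 9.29 and 9.49 in control flanks, a change of 2.09 (SE 0.27, adjusted p = 1.56e-09). The untreated and control arrays of all 4 genes were separate, and those of Fli1 lay closest to each other.

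Klf2 and Klf4 did not pass the test at day 5. Klf2 was at 11.14, 11.44 and 11.63 in untreated flanks, against 10.86, 11.05 and 11.64 in control flanks, and differed by 0.29 (SE 0.22, adjusted p = 0.275), with a 95% interval of -0.14 to 0.72. Klf4 was at 13.34, 13.73 and 14.23 in untreated flanks, against 13.44, 14.06 and 14.58 in control flanks, and differed by -0.31 (SE 0.16, adjusted p = 0.107), with an interval of -0.64 to 0.01. The groups overlapped for both genes, and the second Klf4 probe set differed by -0.37 (SE 0.18, adjusted p = 0.0747). Each gene passed under 1 other setting: Klf2 with only the compared groups in the fit, at 0.29 (adjusted p = 0.0353), and Klf4 with array weights, at -0.41 (adjusted p = 0.00531).

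At day 20, 7 genes were higher in untreated than in control flanks, where 22.4% of all genes were higher. For 6 of them no untreated array overlapped with a control array, as for 4.41% of all probe sets, and the exception was Fli1. These were the same 7 genes as at day 5, and all 7 still passed without arrays 51 and 52. Sox17 had its highest group mean here, with levels of 12.20, 13.25 and 13.73 in untreated flanks, against 10.45, 10.86 and 11.32 in control flanks, a change of 2.19 (SE 0.28, adjusted p = 4.4e-09). Ets1 was at 12.38, 13.81 and 14.61 in untreated flanks and changed by 2.22 (SE 0.28, adjusted p = 2.76e-09) against control. The spread was wider than at day 5: the Erg levels in untreated flanks at day 20 were 10.18, 11.40 and 12.78, with arrays 51 and 52 at 12.72 and 12.78, and its change was 2.10 (SE 0.29, adjusted p = 3.15e-08). Between untreated flanks at day 20 and at day 5, 1 of the 9 genes changed, Klf4, by 0.61 (SE 0.16, adjusted p = 0.00514), where 10.2% of all genes were higher.

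By day 60 the 7 genes were no longer called higher than in control flanks. The only called gene was Klf4, at 14.29, 14.89 and 15.27 in untreated flanks, against 13.44, 14.06 and 14.58 in control flanks, a change of 0.81 (SE 0.16, adjusted p = 8.97e-05), where 18.3% of all genes were higher. Changes of the other 8 genes against control ran from -0.66 (Sox17, adjusted p = 0.0626) to 0.44 (Sox7, adjusted p = 0.134). Set against untreated flanks at day 20, 7 genes were lower and Klf4 was higher at day 60, where 13.3% of all genes were lower and 11.5% higher. Klf4 did not pass there without untreated arrays 51 and 52, at 0.38 (adjusted p = 0.159). Sox17 showed -2.85, Sox18 -2.66 and Ets1 -2.64 in that comparison. The Ets1 probe sets disagreed at day 60 against control: 1422028_a_at was higher by 0.62 (SE 0.15, adjusted p = 0.000734), while the brightest differed by -0.42 (SE 0.28, adjusted p = 0.255). Without the untreated day 60 arrays 77 and 79, Sox17 was called lower than in control flanks, with a change of -0.69 (adjusted p = 0.0372).

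**Figure D2:**
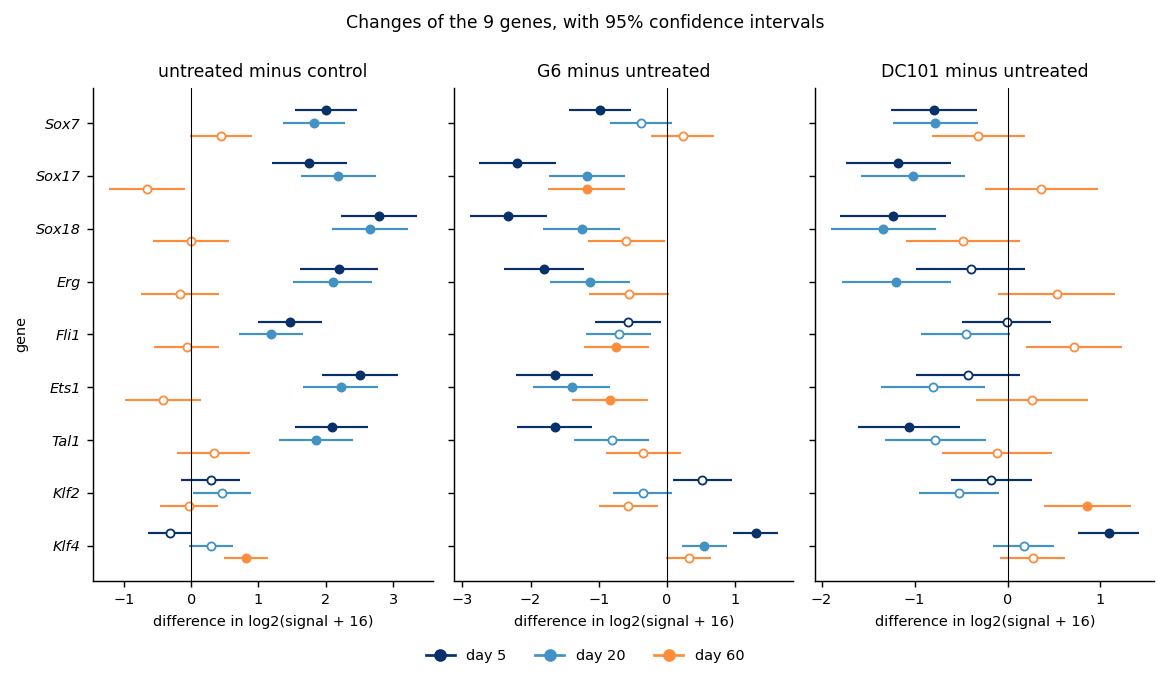
Change on the log2 scale with its 95% interval for each of the 9 genes, in untreated against control flanks and in G6 and DC101 against untreated flanks, at days 5, 20 and 60. In G6 flanks at day 5, Sox18 lay at -2.32 and Klf4 at 1.3, and in DC101 flanks at day 5 Erg and Ets1 lay at -0.40 and -0.42, with intervals that include 0.

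With G6 at day 5, 6 genes were lower and 1 was higher than in untreated flanks, and the 8 G6 and 8 untreated arrays were separate for all 7, as they were for 6.26% (lower) and 4.72% (higher) of all probe sets. Of all genes, 31.6% changed, 14.9% lower and 16.6% higher. The median change was -1.65 over the 9 genes and 0.01 over all genes. Sox18 was at 9.83, 10.39 and 11.24 in G6 flanks, against 12.34, 12.84 and 13.27 in untreated flanks, a change of -2.32 (SE 0.28, adjusted p = 1.32e-09). Sox17 was at 10.10, 10.32 and 11.21 in G6 flanks, against 12.47, 12.63 and 12.92 in untreated flanks, and changed by -2.19 (SE 0.28, adjusted p = 5.71e-09). Its G6 group mean lay below that of the control flanks, but this difference of -0.44 (SE 0.28, adjusted p = 0.219) was not called. Sox7 fell less, to 9.97, 10.72 and 11.32 in G6 flanks, against 11.37, 11.67 and 11.89 in untreated flanks, a change of -0.99 (SE 0.23, adjusted p = 0.000582).

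Erg was at 9.03, 9.78 and 10.12 in G6 flanks at day 5, against 11.29, 11.51 and 11.84 in untreated flanks, a change of -1.80 (SE 0.29, adjusted p = 1.71e-06). Ets1 was at 11.37, 12.13 and 13.36 in G6 and 13.64, 13.95 and 14.25 in untreated flanks, a change of -1.65 (SE 0.28, adjusted p = 4.41e-06), and its other 3 probe sets were lower too. Tal1 was at 8.64, 9.89 and 10.14 in G6 flanks, against 10.68, 11.45 and 11.72 in untreated flanks, a change of -1.65 (SE 0.27, adjusted p = 2.65e-06). Fli1 was the exception among the ETS genes, since its brightest probe set did not pass. It lay at 11.46, 11.92 and 13.08 in G6 flanks, against 12.33, 12.53 and 13.22 in untreated flanks, with overlap and a change of -0.57 (SE 0.24, adjusted p = 0.0595). Its second probe set was called lower, with a change of -0.78 (SE 0.23, adjusted p = 0.00766). The brightest passed with only the compared groups in the fit, at -0.57 (adjusted p = 0.0313). It also passed without G6 arrays 13 and 14, at -0.85 (adjusted p = 0.00584), but these were high in endothelial genes, and leaving them out favours a larger fall.

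Klf4 moved the other way and rose with G6 at day 5. It was at 14.62, 15.10 and 15.42 in G6 flanks, against 13.34, 13.73 and 14.23 in untreated flanks, a change of 1.3 (SE 0.16, adjusted p = 3.43e-09), and no G6 array lay below an untreated array. Its second probe set rose by 1.13 (SE 0.18, adjusted p = 7.04e-07). Klf2 was at 11.41, 11.88 and 12.48 in G6 flanks, against 11.14, 11.44 and 11.63 in untreated flanks, and differed by 0.51 (SE 0.22, adjusted p = 0.0632), with overlapping arrays. It passed with only the compared groups in the fit, at 0.51 (adjusted p = 0.00267). Against control flanks, 5 genes were higher with G6 at day 5, where 22.1% of all genes were higher. They were Sox7 (1.01), Fli1 (0.89), Ets1 (0.86), Klf2 (0.80) and Klf4 (0.99), and Ets1 did not pass without arrays 13 and 14, at 0.51 (adjusted p = 0.169).

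Markers of other cells moved beside these genes. The mean level of 12 epidermal genes (such as Krt5, Krt10 and Lor) ran over 13.28 to 15.13 in G6 and 13.11 to 14.96 in DC101 flanks, over 12.56 to 14.23 in untreated flanks at day 5 and over 11.23 to 13.66 in control flanks. Of the 12, 5 were higher with G6 than in untreated flanks at day 5 and none with DC101, 5 were higher in untreated flanks at day 5 and 8 at day 60 than in control flanks, and the weakest of them, Flg, had levels of 12.40, 13.71 and 14.92 in G6 flanks and 7.20, 11.09 and 12.96 in control flanks. Of all genes, 16.6% were higher with G6 and 4.66% with DC101 than in untreated flanks at day 5. Against control flanks, 27.7% were higher in untreated flanks at day 5 and 18.3% at day 60. The mean of 9 macrophage genes (such as Cd68 and Csf1r) ran over 13.62 to 14.40 in G6 flanks, 13.89 to 14.24 in untreated flanks at day 5 and 11.97 to 13.58 in control flanks. Of these 9, 8 were higher in untreated than in control flanks at day 5 and none changed with G6. Of 12 lymphocyte genes 6 passed the filter, and 2 of them were higher in untreated flanks at day 5. The mean of these 6 ran over 7.97 to 8.81 in G6 flanks, 8.07 to 8.52 in untreated flanks at day 5 and 7.59 to 8.13 in control flanks, where the B cell gene Cd79b was below the filter level on all 8 arrays. No epidermal or macrophage marker was at 0. The part of epidermis in the Klf4 values, and of macrophages and lymphocytes in the Fli1, Ets1 and Klf2 values, was not tested.

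DC101 at day 5 gave 4 lower genes and 1 higher gene than untreated flanks, where 11.8% of all genes changed, 7.09% lower and 4.66% higher. The arrays of all 5 were separate, as were those of 2.17% (lower) and 1.21% (higher) of all probe sets. The median over the 9 genes was -0.42, and over all genes -0.02. Sox18 was at 11.07, 11.58 and 12.10 in DC101 flanks, against 12.34, 12.84 and 13.27 in untreated flanks, a change of -1.23 (SE 0.28, adjusted p = 0.00175). Sox17 was at 11.21, 11.38 and 12.05 in DC101 and 12.47, 12.63 and 12.92 in untreated flanks, a change of -1.17 (SE 0.28, adjusted p = 0.00275). Sox7 changed by -0.79 (SE 0.23, adjusted p = 0.0153). Tal1 was at 9.99, 10.38 and 10.52 in DC101 flanks, against 10.68, 11.45 and 11.72 in untreated flanks, a change of -1.06 (SE 0.27, adjusted p = 0.00567). The second Sox7 probe set was not called, at -0.60 (SE 0.34, adjusted p = 0.261), nor was Sox7 as the mean of its probe sets, at -0.69 (adjusted p = 0.0505).

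None of the 3 ETS genes passed the test with DC101 at day 5 in the model of all groups, but Erg, at -0.40 (adjusted p = 0.0243), and Ets1, at -0.42 (adjusted p = 0.0129), were called lower with only the compared groups in the fit. Erg was at 10.87, 11.08 and 11.75 in DC101 flanks, against 11.29, 11.51 and 11.84 in untreated flanks, and differed by -0.40 (SE 0.29, adjusted p = 0.415), with a 95% interval of -0.98 to 0.19. Ets1 differed by -0.42 (SE 0.28, adjusted p = 0.352), with an interval of -0.98 to 0.14. Fli1 differed by -0.01 (SE 0.24, adjusted p = 0.991), with an interval of -0.48 to 0.47, and the DC101 and untreated arrays of these 3 genes overlapped. Klf4 rose with DC101 as well, to 14.27, 14.91 and 15.13 in DC101 flanks, against 13.34, 13.73 and 14.23 in untreated flanks, a change of 1.09 (SE 0.16, adjusted p = 1.73e-06). Klf2 differed by -0.17 (SE 0.22, adjusted p = 0.667), and its DC101 levels of 10.42, 11.33 and 12 were spread more widely than its untreated levels.

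G6 and DC101 were given at different doses, so their difference at day 5 is that of the regimens. Of the 9 genes, 4 were lower with G6 than with DC101 and Klf2 was higher, where 5.95% of all genes were lower and 6.34% higher. Erg was at 9.03, 9.78 and 10.12 in G6 flanks, against 10.87, 11.08 and 11.75 in DC101 flanks, a difference of -1.40 (SE 0.29, adjusted p = 0.000368), and it was the only gene of the 5 whose arrays were separate, as were those of 1.65% of all probe sets that were lower with G6. Ets1 differed by -1.22 (SE 0.28, adjusted p = 0.00128), Sox18 by -1.09 (SE 0.28, adjusted p = 0.00482), Sox17 by -1.02 (SE 0.28, adjusted p = 0.00844) and Klf2 by 0.68 (SE 0.22, adjusted p = 0.0234). Klf4 differed by 0.21 (SE 0.16, adjusted p = 0.43), with an interval of -0.12 to 0.54, and Sox7 by -0.20 (SE 0.23, adjusted p = 0.626), with an interval of -0.66 to 0.26. The brightest Fli1 probe set was not called, at -0.57 (SE 0.24, adjusted p = 0.105), and the second was, at -0.67 (SE 0.23, adjusted p = 0.0432). With the 3' to 5' signal ratios of Actb and Gapdh, a measure of RNA length, as covariates, the count was 3, because Erg, at -0.99 (adjusted p = 0.0703), and Klf2, at 0.61 (adjusted p = 0.121), did not pass. The Gapdh ratio ran over 0.900 to 1.55 on G6 arrays and over 0.785 to 1.01 on DC101 arrays at day 5.

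At day 20, 4 genes were lower and 1 higher with G6 than in untreated flanks, where 5.63% of all genes were lower and 3.54% higher, and 4 were lower with DC101, where 4.91% were lower. With G6, Sox17 changed by -1.17 (SE 0.28, adjusted p = 0.00512), Sox18 by -1.25, Erg by -1.13, Ets1 by -1.40 and Klf4 by 0.55. Fli1, at -0.71 (SE 0.24, adjusted p = 0.0512), and Tal1, at -0.81 (SE 0.27, adjusted p = 0.0512), just missed the threshold with G6. The second Fli1 probe set was called, at -0.82 (SE 0.23, adjusted p = 0.0189). With DC101, Sox7 changed by -0.78 (SE 0.23, adjusted p = 0.0285), Sox17 by -1.02, Sox18 by -1.33 and Erg by -1.20. The brightest Ets1 probe set was not called with DC101, at -0.80 (SE 0.28, adjusted p = 0.0691). Its probe set 1452163_at was called, at -1.07 (SE 0.31, adjusted p = 0.0231), and the dimmer ones, at -0.24 and -0.62, were not. Ets1 passed as the mean of its probe sets, at -0.68 (adjusted p = 0.0183). All these groups overlapped, as for Erg, at 9.34, 10.35 and 10.98 in G6 and 9.34, 10.14 and 11.29 in DC101 flanks, against 10.18, 11.40 and 12.78 in untreated flanks. None of the 9 calls by brightest probe set remained without untreated day 20 arrays 51 and 52: Erg then differed by -0.69 (adjusted p = 0.283) with G6 and by -0.76 (adjusted p = 0.217) with DC101, and Sox18 by -0.92 (adjusted p = 0.128) with G6 and by -1.0 (adjusted p = 0.0758) with DC101. Ets1, at -1.08 (adjusted p = 0.061) with G6, Sox17, at -0.97 (adjusted p = 0.12) with G6 and -0.82 (adjusted p = 0.2) with DC101, Sox7, at -0.68 (adjusted p = 0.196) with DC101, and Klf4, at 0.41 (adjusted p = 0.292) with G6, kept most of their change but missed the threshold. Arrays 51 and 52 were high in endothelial genes, so leaving them out favours smaller falls with either antibody. The lost calls therefore cannot decide whether the falls hold. The second Sox7 probe set differed by 0.25 (SE 0.34, adjusted p = 0.732) with DC101 and all 8 arrays of each group. Between G6 and DC101 at day 20, limma called none of the 9 genes, where 0.306% of all genes changed. At an unadjusted p under 0.05, 1 was higher (Klf4) and 1 lower (Ets1) with G6.

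At day 60, 3 genes were lower with G6 than in untreated flanks, where 8.95% of all genes were lower. Sox17 was at 8.26, 9.22 and 9.77 in G6 flanks, against 8.52, 10.37 and 12.19 in untreated flanks, a change of -1.18 (SE 0.28, adjusted p = 0.00378). Ets1 changed by -0.83 (SE 0.28, adjusted p = 0.0429) and Fli1 by -0.74 (SE 0.24, adjusted p = 0.033), and neither passed without untreated arrays 77 and 79, at -0.75 (adjusted p = 0.0898) and -0.73 (adjusted p = 0.0576). All 3 calls rest on the brightest probe set: the second probe set gave -0.29 (SE 0.18, adjusted p = 0.314) for Sox17 and -0.34 (SE 0.23, adjusted p = 0.377) for Fli1, and the other 3 Ets1 probe sets gave -0.68, -0.35 and 0.06, none of them called. Erg was split within the G6 group: arrays 86 to 88 lay between 9.52 and 10.31 and arrays 81 to 85 between 7.60 and 8.21, against 8.52, 9.02 and 10.43 in untreated flanks. Arrays 86 to 88 were left out after they were seen to be high, which favours lower values with G6, so the p-values gained are no support. Without arrays 86 to 88, the genes lower with G6 included Erg at -1.30 (adjusted p = 0.00157) and Tal1 at -0.93 (adjusted p = 0.0182). The Actb 3' to 5' ratio ran over 1.81 to 3.03 on these G6 arrays and over 1.58 to 2.57 on the untreated day 60 arrays, and no gene was called with the ratios as covariates, where Ets1 was at -0.92 (adjusted p = 0.197) and Fli1 at -0.75 (adjusted p = 0.216), close to their changes without them, and Sox17 at -0.65 (adjusted p = 0.362).

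With DC101 at day 60, Klf2 alone of the 9 genes passed, where 4.82% of all genes were higher. It was at 10.76, 12.09 and 12.98 in DC101 flanks, against 10.72, 10.93 and 11.74 in untreated flanks, a change of 0.86 (SE 0.23, adjusted p = 0.0104), and its arrays overlapped. DC101 arrays 93 and 94 lay within the untreated range, at 11 and 10.76, and the other 4 lay above it. Without arrays 93 and 94 the Klf2 change was 1.39 (adjusted p = 2.69e-05). They were left out for their low Klf2, so a larger change was bound to follow and its p-value is no support. Fli1 passed too in this setting, chosen after seeing the data, at 0.98 (adjusted p = 0.0125). With only the compared groups in the fit Klf2 did not pass, at 0.86 (adjusted p = 0.0953), and Fli1 did, at 0.71 (adjusted p = 0.0337), and with adjacent arrays averaged in pairs Klf2 was at 0.86 (adjusted p = 0.0822). With the RNA length ratios as covariates the Klf2 change was 0.47 (adjusted p = 0.439), and the Actb ratio ran over 1.17 to 1.56 on DC101 arrays. Against DC101, G6 flanks at day 60 were lower in 5 of the 9 genes, where 21.6% of all genes were lower, and Klf2 differed by -1.43 (SE 0.23, adjusted p = 3.3e-06) and Fli1 by -1.46 (SE 0.26, adjusted p = 1.25e-05). Sox17 differed by -1.54 (SE 0.30, adjusted p = 6.05e-05), Ets1 by -1.10 (SE 0.30, adjusted p = 0.00316) and Erg by -1.08 (SE 0.32, adjusted p = 0.00496). Without G6 arrays 86 to 88, left out after they were seen to be high, Tal1 was lower as well, at -0.82 (adjusted p = 0.0222), which is no support. With the ratios as covariates none of the 5 passed: Fli1 was at -1.30 (adjusted p = 0.149), Ets1 at -1.22 (adjusted p = 0.262), Erg at -1.09 (adjusted p = 0.347), Klf2 at -0.68 (adjusted p = 0.413) and Sox17 at -0.55 (adjusted p = 0.661). The Ets1 and Erg differences were no smaller there, but their SEs rose to 0.44 and 0.45, whereas the differences of Klf2 and Sox17 shrank.

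Against control flanks, Fli1 (0.48, adjusted p = 0.12) and Klf2 (0.09, adjusted p = 0.78) were not called with G6 at day 20. G6 gave 7 higher genes there, Klf4 (0.84) among them, where 18.3% of all genes were higher. At day 60 it gave 2 higher genes, Sox7 (0.67) and Klf4 (1.12), and 5 lower ones, where 23.7% of all genes were higher and 24.8% lower, and the lower ones ran from -1.84 (Sox17) to -0.60 (Klf2). Without G6 arrays 86 to 88, Sox7, at 0.14 (adjusted p = 0.629), and Klf2, at -0.49 (adjusted p = 0.0933), did not pass. With the RNA length ratios as covariates Klf4 alone of the 7 passed: Klf2 turned to 0.13 (adjusted p = 0.872), and Sox17 was at -0.89 (adjusted p = 0.201), Ets1 at -1.37 (adjusted p = 0.0582), Erg at -0.70 (adjusted p = 0.396), Fli1 at -0.65 (adjusted p = 0.331) and Sox7 at 0.44 (adjusted p = 0.53). Without the ratios Ets1 was at -1.25 (SE 0.28), Erg at -0.72 (SE 0.29) and Fli1 at -0.81 (SE 0.24). With them these SEs were 0.42, 0.43 and 0.35. DC101 gave 7 higher genes against control at day 5, 8 at day 20 and 2 at day 60, where 23.1%, 14.9% and 11% of all genes were higher. Those at day 5 included Klf4 (0.77) but not Sox17 (0.58, adjusted p = 0.0886) or Klf2 (0.12, adjusted p = 0.701). Those at day 20 were all but Klf2 (-0.07, adjusted p = 0.851). The 2 at day 60 were Klf2 (0.83) and Klf4 (1.08). Without DC101 arrays 93 and 94, a setting chosen after seeing the data, Fli1 passed too, at 0.91 (adjusted p = 0.0181). These comparisons share the control arrays with those of the untreated flanks.

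The order of the 10 group means differed between the genes, and most neighbours in it lay closer than the larger of their 2 standard deviations. Erg was highest in untreated flanks at day 5 (11.53 ± 0.20, SD, n = 8) and at day 20 (11.44 ± 0.94), followed by DC101 at day 5 (11.14 ± 0.29), G6 at day 20 (10.31 ± 0.54), DC101 at day 20 (10.24 ± 0.67), G6 at day 5 (9.73 ± 0.34), DC101 at day 60 (9.70 ± 0.25, n = 6), control (9.34 ± 0.28), untreated at day 60 (9.17 ± 0.61) and G6 at day 60 (8.62 ± 1.06). Only the steps after DC101 at day 5 and after DC101 at day 60 were larger than both SDs. Ets1 kept much of this order, from 13.94 ± 0.21 in untreated flanks at day 5 to 10.18 ± 0.81 in G6 flanks at day 60, with steps above the SDs after G6 at day 20 and after untreated at day 60. Fli1 had a single such step, between G6 at day 20 (11.66 ± 0.41) and control (11.19 ± 0.40). Tal1 had 2, between DC101 at day 5 (10.32 ± 0.20) and G6 at day 5 (9.73 ± 0.49) and between DC101 at day 60 (9.51 ± 0.18) and control (9.29 ± 0.13).

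Sox17 had 3 such steps, below untreated at day 5 (12.67 ± 0.19), below DC101 at day 5 (11.50 ± 0.30) and above G6 at day 60 (9.08 ± 0.56), and its top group was untreated at day 20 (13.10 ± 0.53). Sox18 had 3 as well, after untreated at day 20 (12.69 ± 0.72), after DC101 at day 20 (11.35 ± 0.77) and after control (10.03 ± 0.38). In Sox7, from 11.65 ± 0.18 in untreated flanks at day 5 to 9.65 ± 0.27 in control flanks, no neighbours differed by more than their SDs. Klf2 had 1 such step, between DC101 at day 20 (11.04 ± 0.24) and G6 at day 60 (10.51 ± 0.46), and was highest with DC101 at day 60 (11.94 ± 0.90, n = 6). Klf4 had none, with G6 at day 60 (15.17 ± 0.23), DC101 at day 60 (15.13 ± 0.23) and G6 at day 5 (15.03 ± 0.29) highest and untreated at day 5 (13.73 ± 0.31) lowest.

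The antibody effect, the antibody minus the untreated level at the same day, was compared between days by interaction terms. For Klf4 the G6 effect was smaller at day 20 than at day 5, with a difference of -0.75 (SE 0.23, adjusted p = 0.03), where 5.12% of all genes were lower in this term, and so was the DC101 effect, with a difference of -0.91 (SE 0.23, adjusted p = 0.0185), where 0.958% were. The second Klf4 probe set was not called for G6, at -0.51 (SE 0.25, adjusted p = 0.184), and the brightest missed the threshold there with the mean of the probe sets, at -0.63 (adjusted p = 0.0806), with the RNA length ratios, at -0.73 (adjusted p = 0.0567), and with arrays averaged in pairs, at -0.75 (adjusted p = 0.091). For DC101 it missed the threshold with averaged pairs, at -0.91 (adjusted p = 0.11). The DC101 effect at day 60 lay above that at day 20 in 4 genes, where it was above in 8.71% of all genes: Erg by 1.72 (SE 0.43, adjusted p = 0.00348), Sox17 by 1.38 (SE 0.42, adjusted p = 0.0154), Klf2 by 1.38 (SE 0.32, adjusted p = 0.00165) and Fli1 by 1.16 (SE 0.35, adjusted p = 0.0165). Without untreated arrays 51 and 52, Sox17 gave 1.18 (adjusted p = 0.0623) and Fli1 0.88 (adjusted p = 0.0901), and the calls of Erg and Klf2 remained. Leaving out these arrays, high in endothelial genes, favours a smaller difference in this term. With the RNA length ratios as covariates none of the 4 passed, with Erg at 1.62 (adjusted p = 0.0638), Klf2 at 0.72 (adjusted p = 0.293), Fli1 at 0.95 (adjusted p = 0.224) and Sox17 at 0.56 (adjusted p = 0.575). No gene was called for the G6 effect at day 60 against day 20 in limma or at an unadjusted p under 0.05, where 0.0747% of all genes were called. Without arrays 51 and 52, the genes called for the G6 effect at day 20 against day 5 included Sox18 at 1.40 (adjusted p = 0.0183), Sox17 at 1.22 (adjusted p = 0.0498) and Tal1 at 1.17 (adjusted p = 0.0415). These arrays were high in endothelial genes, and leaving them out favours such a difference.

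Across the 78 arrays, which share the groups and the tissue's vessel content, Ets1 and Erg followed the pan-endothelial mean most closely, with r of 0.97 and 0.96. Sox18 (0.93), Sox17 (0.89), Fli1 (0.89) and Tal1 (0.88) came next, and Sox7 followed less closely (0.71). Klf2 (0.32) and Klf4 (-0.53) had lower values. Within groups, that is after each group's mean was removed, r was 0.91 for Ets1, 0.86 for Erg, 0.47 for Sox7, 0.32 for Klf2 and -0.38 for Klf4. Between members, Erg and Ets1 had r of 0.94 and Erg and Tal1 0.91, Sox7 and Sox17 had 0.57, and Klf2 and Klf4 had -0.02. These correlations are descriptions over arrays that share their groups.

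Set against the pan-endothelial mean of each array, the changes were much smaller for most of the genes. In this relative fit 97.1% of all probe sets were called for untreated against control flanks at day 5, so most of the array moved away from the endothelial mean and the adjustment changed p-values little. Erg (-0.13), Tal1 (-0.24), Ets1 (0.19) and Sox7 (-0.32) were not called. Sox18 rose beyond the mean of the pan-endothelial genes, by 0.47 (SE 0.17, adjusted p = 0.00944), though not beyond each of them. Sox17 rose less than this mean, at -0.57 (SE 0.20, adjusted p = 0.00557), as did Fli1, at -0.86 (SE 0.17, adjusted p = 3.32e-06). Klf2, at -2.03 (SE 0.27, adjusted p = 2.3e-10), and Klf4, at -2.63 (SE 0.34, adjusted p = 4.38e-11), lay furthest behind. At day 20 Sox18 (0.68) was again above, and Fli1 (-0.79), Klf2 (-1.53) and Klf4 (-1.69) below, where 97.3% of probe sets were called, and at day 60 none of the 9 was called, where 5.87% were.

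**Figure D3:**
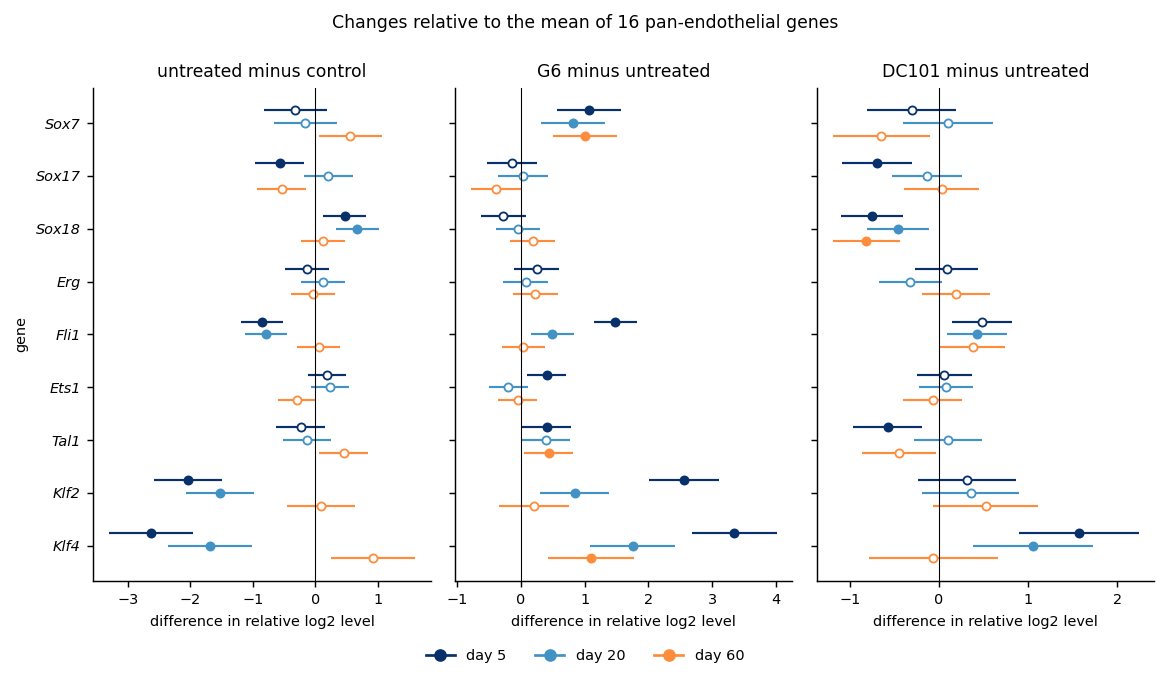
Change relative to the mean of 16 pan-endothelial genes, on the log2 scale with its 95% interval, for each of the 9 genes in untreated against control flanks and in G6 and DC101 against untreated flanks, at days 5, 20 and 60. Erg lay at -0.13 in untreated flanks, at 0.25 in G6 flanks and at 0.09 in DC101 flanks at day 5, whereas Klf4 lay at -2.63, 3.35 and 1.57.

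With G6 at day 5, Erg (0.25, adjusted p = 0.164), Sox17 (-0.14, adjusted p = 0.477) and Sox18 (-0.27, adjusted p = 0.123) were not called relative to the pan-endothelial mean. Ets1 (0.40), Tal1 (0.40), Sox7 (1.06) and Fli1 (1.48) lay above it and were called, as were Klf2 (2.56) and Klf4 (3.35), where 97.7% of probe sets were called. With DC101 at day 5, 9.49% of probe sets were called. Sox18, at -0.75 (SE 0.17, adjusted p = 0.00431), Sox17, at -0.69 (SE 0.20, adjusted p = 0.0205), and Tal1, at -0.58 (SE 0.19, adjusted p = 0.0453), fell further than the pan-endothelial mean, and Klf4 was above, at 1.57 (SE 0.34, adjusted p = 0.00187). The relative difference between G6 and DC101 at day 5 was 0.47 (SE 0.17, adjusted p = 0.00881) for Sox18, 0.55 (SE 0.20, adjusted p = 0.00736) for Sox17 and 0.98 (SE 0.19, adjusted p = 5.11e-06) for Tal1, where 96.4% of probe sets were called. Erg was not called in that comparison, at 0.16 (SE 0.18, adjusted p = 0.366).

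At day 20 the relative change with G6 was called for Sox7 (0.82), Fli1 (0.49), Klf2 (0.84) and Klf4 (1.75), where 94% of probe sets were called. With DC101 it was called for Sox18 (-0.46), Fli1 (0.43) and Klf4 (1.05), where 78.5% were. At day 60 Sox18 lay below the pan-endothelial mean with DC101, at -0.82 (SE 0.19, adjusted p = 0.0277), where 0.397% of probe sets were called. With G6 at day 60, Sox7 (1.01), Tal1 (0.44) and Klf4 (1.10) lay above it, where 66.1% were called.

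Most genes known as targets of ETS and SOXF factors were higher in untreated flanks at day 5, as the factor genes were. Of 25 tested, 19 were higher and 3 lower in untreated than in control flanks, with a median change of 1.87, against 0.05 over all genes. Notch4, a Notch receptor of arteries, rose by 4.01 (SE 0.37, adjusted p = 1.49e-14), and Icam2, an adhesion molecule of resting endothelium, by 3.49 (SE 0.37, adjusted p = 2.22e-12). Vwf, which carries clotting factor VIII and tethers platelets, fell, with a change of -1.49 (SE 0.30, adjusted p = 2.25e-05), and the gelatinase gene Mmp2, with a change of -0.79 (SE 0.24, adjusted p = 0.00487). The third was the angiopoietin receptor gene Tek, at -0.57. With G6 the same list had 19 lower and 2 higher genes, where Notch4 changed by -3.73 (SE 0.37, adjusted p = 1.77e-12) and Icam2 by -3.15 (SE 0.37, adjusted p = 4.62e-10), while Mmp2 (1.39) and Vwf (1.16) rose. With DC101 at day 5, 7 were lower and 2 higher: Hlx (-1.24), a homeobox factor, and Flt1 (-1.22), the VEGFR-1 gene, fell furthest, and Vwf (0.86) and Mmp2 (0.82) rose. This list holds 7 of the pan-endothelial genes. Of all genes, 27.7% were higher in untreated than in control flanks at day 5. With G6 14.9% were lower and 16.6% higher than in untreated flanks, and with DC101 7.09% were lower and 4.66% higher.

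Of the 10 genes that encode Tal1's partners and relatives, 8 were higher in untreated than in control flanks at day 5, where 27.7% of all genes were. They rose by less than Tal1 itself. Lyl1, its closest relative, rose by 1.17 (SE 0.15, adjusted p = 7.26e-10), the E protein gene Tcf4 by 1.07 (SE 0.13, adjusted p = 1.82e-10), Gata2 by 0.77, the bridging factor gene Lmo2 by 0.48 and Ldb1 by 0.39. With G6, 3 were lower and 1 higher, namely Tcf4 (-0.43), Ldb1 (-0.39) and Gata2 (-0.37) against Tcf12 (0.30), and with DC101 only Lyl1 was lower, at -0.44 (SE 0.15, adjusted p = 0.0424). Of all genes, 14.9% were lower and 16.6% higher with G6, and 7.09% were lower with DC101. Markers of other cells that hold Tal1 were counted too. In untreated flanks at day 5, 4 of 6 platelet, 2 of 3 erythroid and 1 of 8 mast cell genes were higher, where 27.7% of all genes were. With G6, 1 platelet, 2 erythroid and 1 mast cell gene were lower than in untreated flanks, where 14.9% of all genes were. Of the mast cell genes 4 were higher with G6, where 16.6% of all genes were. The mean level of the 3 erythroid genes ran over 8.00 to 8.81 in G6 flanks, 9.65 to 10.64 in DC101 flanks, 9.52 to 10.61 in untreated flanks at day 5 and 8.30 to 9.96 in control flanks. The mean of the 6 platelet genes ran over 10.00 to 10.34 in G6, 10.14 to 10.54 in DC101, 10.35 to 10.93 in untreated and 9.67 to 10.13 in control flanks, and that of the 8 mast cell genes over 10.30 to 11.26 in G6, 9.68 to 11.39 in DC101, 9.86 to 10.77 in untreated and 8.69 to 10.77 in control flanks. The part of these cells in the Tal1 values was not tested.

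Upstream of Klf2 and Klf4, 12 genes of the MEK5, ERK5 and MEF2 pathway and of the cerebral cavernous malformation complex were tested. At day 5, 4 were higher and 1 lower in untreated than in control flanks, where 27.7% of all genes were higher, so the count does not set the list apart from all genes. The largest was Rasip1, an adaptor of vessel lumen formation, at 1.65 (SE 0.24, adjusted p = 2.04e-08), followed by Ccm2, a subunit of that complex, at 0.52 (SE 0.17, adjusted p = 0.0102), and the lower one was Map2k5, the MEK5 gene, at -0.26 (SE 0.10, adjusted p = 0.0332). With G6 3 were lower than in untreated flanks, among them Rasip1, at -1.91 (SE 0.24, adjusted p = 2.46e-09), and with DC101 1 was lower, Krit1, at -0.38 (SE 0.11, adjusted p = 0.0115). Of all genes, 14.9% were lower with G6 and 7.09% with DC101. Mapk7, the ERK5 gene, was not called at day 5 in untreated flanks, at 0.81 (SE 0.36, adjusted p = 0.0566).

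Of 12 genes known to respond to Klf2 or Klf4, 7 were higher and 2 lower in untreated flanks at day 5, where 27.7% of all genes were higher. The targets that these factors are known to induce did not move in a single direction: Nos3, the endothelial nitric oxide synthase gene, rose by 1.29 (SE 0.20, adjusted p = 1.66e-07), and Thbd, the thrombomodulin gene, fell, at -1.42 (SE 0.23, adjusted p = 2.24e-07). The repressed target Angpt2 rose by 2.39 (SE 0.28, adjusted p = 7.69e-11). With G6, 7 were lower and 2 higher, where Nos3 was at -1.63 (SE 0.20, adjusted p = 2.46e-09) and Thbd at 1.18 (SE 0.23, adjusted p = 3.79e-05). With DC101, 3 were lower and none was higher: Adamts4 (-1.53), Angpt2 (-0.94) and Nos3 (-0.92). Of all genes, 14.9% were lower and 16.6% higher with G6, and 7.09% were lower and 4.66% higher with DC101.

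Among 26 other endothelial transcription factor genes, 16 were higher and 1 lower in untreated than in control flanks at day 5, with a median change of 0.82, below the 2.00 of the 9 genes. Sox11, a SOX factor of another subgroup, was below the filter level on all 8 control arrays, and its rise was at least 7.91-fold (adjusted p = 1.31e-21). The repressor gene Bcl6b rose by 3.55 (SE 0.30, adjusted p = 6.81e-16), and Foxo1, a factor of endothelial quiescence, fell, at -0.34 (SE 0.11, adjusted p = 0.0104). With G6, 11 were lower and 2 higher: Bcl6b (-2.59) and the Notch target Hey1 (-2.39) fell furthest, and Nfatc1 (0.56) and Foxo1 (0.36) rose. With DC101, 6 were lower, Sox11 (-1.62) and Hlx (-1.24) furthest, and Foxo1 was higher, at 0.43 (SE 0.11, adjusted p = 0.00827). Of all genes, 27.7% were higher in untreated than in control flanks at day 5. With G6 14.9% were lower and 16.6% higher than in untreated flanks, and with DC101 7.09% were lower and 4.66% higher.

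The genes whose levels followed each member most closely over the 78 arrays, the members themselves left out, differed between the members. Ets1 was nearest to Gimap4 (r = 0.98), Cd93 (0.97) and Shank3 (0.96), and Erg to the pan-endothelial genes Egfl7 (0.95), Tie1 (0.95) and Clec14a (0.95). Fli1 was nearest to the ETS gene Elk3 (0.96), then Rasa3 (0.95) and Entpd1 (0.94). Sox17 was nearest to the phosphatase gene Ptprb (0.95), Slc9a3r2 (0.94) and the pericyte gene Rgs5 (0.93), and Sox18 to Arap3 (0.95), Gimap8 (0.94) and Col4a2 (0.94). Sox7 and Tal1 shared Flt4, the VEGFR-3 gene, at r of 0.88 and 0.92. Sox7 was nearest to Ndufa4l2 (0.88) and Tal1 to Klhl4 (0.92). The highest values were lower for Klf2, with Cyp20a1 at 0.80, and for Klf4, with Megf9 at 0.81.

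The dim probe sets of these genes limited what could be read from them. The second Erg probe set, 1425370_a_at, passed the filter level on 7 arrays, the second Sox7 probe set, 1432495_at, on 23, and the Ets1 probe set 1422027_a_at on 33. All control arrays of the Sox7 probe set lay below that level, so that its day 5 rise in untreated flanks is at least 1.39-fold (adjusted p = 4.92e-07). Its brighter partner, 1416564_at, had a change of 2.00 on the log2 scale in the same comparison. The second Sox17 probe set gave smaller changes of the same sign as the brightest at day 5, 0.97 in untreated against control flanks, -1.15 with G6 and -0.61 with DC101, and all 3 were called.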

How the data were processed

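RNA from 78 flank tissue samples was measured on 1 array each. Per the submitters' processing notes the authors used MAS5 in GCOS 1.3, and what they deposited is 1 linear intensity (MAS5 signal) for each probe set and array. The deposited intensities had a middle 96% mean of 1500.01 on every array and array medians of 454.85 to 582.58, and the highest correlation between 2 arrays was 0.977. The number of arrays, not a read depth, limits the precision. Where scripts needed a log2 scale, log2(signal + 16) was computed from the deposited values.

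The platform annotation gave 1 symbol for 34958 probe sets, several for 932 and none for 9211, which stay unnamed. A probe set was tested if 6 or more arrays had a signal above 331 (percentile 40 over the whole table), which left 26696 probe sets and 14718 genes. One limma fit (3.58.1, R 4.3.3; eBayes with an intensity trend) over 10 groups gave 20 comparisons and 4 interaction terms, with two-sided p-values adjusted by Benjamini-Hochberg over all tested probe sets. The relative fit used the level minus the mean of 16 pan-endothelial genes on that array. The steps were tested on simulated data. Of 258 entries in 20 gene lists, 236 matched a tested gene.

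Members and lists were chosen with earlier results of these data known. Named are all member probe sets, up to 2 genes per list and direction with the largest called change at day 5, pathway genes set beside a member, and the 3 genes most like each member. Alternatives covered the pseudocount, filter, normalization, array weights, groups in the fit, probe set choice, RNA length ratios, arrays left out and arrays averaged in pairs. Promoters are from RefSeq (GRCm38.p6). Proteins were not used here.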

Additional observations from a re-analysis of the deposited data

Results flagged for a closer look

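Of 170 groups of 6 to 8 arrays, 1 for each of 17 probe sets and 10 groups, 16 had a single array far from the others, and chance gives about 1 in 20. High arrays were, in log2(signal + 16): Erg 1425370_a_at at 5.99 on G6 day 5 array 12, Erg 1440244_at at 11.75 and Ets1 1452163_at at 14.02 on DC101 day 5 array 24, Sox17 1421657_a_at at 10.95 on G6 day 20 array 60, and Sox18 1449135_at at 10.44 on G6 day 60 array 87. Untreated day 60 array 77 was high in Sox17 1421657_a_at (9.67) and Sox18 1449135_at (11.73) and low in Klf4 1417395_at (13.02).

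Low arrays were G6 day 5 array 12 in Ets1 1422027_a_at (5.88) and Tal1 1449389_at (8.64), DC101 day 60 array 94 in Tal1 (9.17), and untreated day 5 array 3 in Tal1 (10.68). The dim Sox7 probe set 1432495_at was low on G6 day 20 array 64 (6.77), G6 day 5 array 10 (6.08), untreated day 20 array 54 (7.13) and untreated day 60 array 76 (5.73).

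An antibody effect differed between days by an interaction term in limma in these cases. The G6 effect on Klf4 (1417394_at) changed by -0.75 between day 5 and day 20, and the DC101 effect by -0.91, or -1.07 for Klf4 1417395_at. The DC101 effect at day 60 minus that at day 20 was 1.38 and 1.33 for the 2 Sox17 probe sets, 1.72 for Erg, 1.16 and 1.11 for the 2 Fli1 probe sets, 1.58 for Ets1 1452163_at and 1.38 for Klf2.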

How the results depend on the processing

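Of 4971 alternative values of single probe sets, 4638 kept their direction and side of the threshold, 212 no longer passed, 120 newly passed, 1 reversed, and 134 changed sign with neither value past the threshold. The reversal was Klf2 with G6 against control at day 60, 0.13 when the 3' to 5' ratios of Actb and Gapdh entered the fit. No paired analysis was possible because the running numbers in the titles are shared by no 2 groups. Counts below are called genes of 9 that moved by over 1.5 times, all others did not. The share of all genes called under each setting is not given, so these counts do not set the 9 genes apart from all genes. With adjacent arrays averaged in pairs the counts were 5 (DC101 day 20) and 1 (DC101 day 60) against control, 3 (G6 day 20), 1 (DC101 day 20), 1 (G6 day 60) and 0 (DC101 day 60) against untreated, 0 for either antibody's effect at day 20 against day 5, and 2 for the DC101 effect at day 60 against day 20. With the RNA length ratios they were 3 (G6 day 5) and 1 (G6 day 60) against control, 0 for G6 and for DC101 against untreated at day 60, 3 and 0 for G6 against DC101 at days 5 and 60, and 0 for the DC101 effect at day 60 against day 20. With only the compared groups fitted they were 0 (G6 day 20), 1 (DC101 day 20) and 0 (G6 day 60) against untreated, and 3 for the G6 effect at day 20 against day 5. Without arrays 51 and 52 they were 0 and 0 (G6 and DC101 day 20), 4 (G6 effect) and 2 (DC101 effect at day 60 against day 20), without 13 and 14 2 (G6 effect), and without 77 and 79 1 (G6 day 60) and 2 (untreated day 60 against control). Settings chosen after seeing the data gave 5 (G6 day 60 without 86 to 88) and 2 (DC101 day 60 without 93 and 94). Array weights gave 2 (DC101 day 60) and 6 (G6 effect), and the mean of probe sets 1 (G6 day 60) and 0 (G6 effect). Relative to the median of the endothelial list the counts were 1 (DC101 day 60 and untreated day 60 against control), 2 (DC101 effect at day 60 against day 20) and 0 (untreated day 20 against day 5), and without ETS and SOXF targets in it 0 and 2 for these last comparisons. The cause was not tested in any of these.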

Other observations

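Of 34 tested SOX, ETS and KLF genes outside the endothelial list, 14 were higher and 6 lower in untreated than in control flanks at day 5, near the 52.4% of all genes that changed, with a median change of 0.14, against 0.05 over all genes. Klf15, a glucocorticoid-responsive regulator of metabolism, was below the filter level on all 8 untreated arrays, and was lower by at least 4.84-fold (adjusted p = 5.8e-18). Sox6 changed by -1.51 (SE 0.24, adjusted p = 1.29e-07). Spi1, the PU.1 gene of macrophages, rose by 1.72 (SE 0.19, adjusted p = 6.19e-12) and Etv4 by 1.39 (SE 0.39, adjusted p = 0.00207), while the mean level of 9 macrophage genes ran over 13.89 to 14.24 in untreated and 11.97 to 13.58 in control flanks. The part of macrophages in the Spi1 value was not tested. Klf15 levels were 8.86, 9.45 and 10.11 (lowest, median and highest) in G6 and 9.20, 9.81 and 10.56 in DC101 flanks, against 4.99, 6.47 and 6.88 in untreated flanks. It rose by at least 2.06-fold (adjusted p = 1.46e-11) with G6 and by at least 2.7-fold (adjusted p = 1.38e-12) with DC101, and Klf9 rose by 1.64 (SE 0.19, adjusted p = 2.15e-09) with DC101. Sox2, a SOX factor of hair and nerve tissue, was below the filter level on all untreated arrays and on 3 of 8 G6 arrays, and rose by at least 1.16-fold (adjusted p = 4.64e-06) with G6, which gave 7 higher and 2 lower genes of the 34, where 16.6% and 14.9% of all genes were higher and lower, while DC101 gave 5 higher and none lower, where 4.66% and 7.09% were.

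Of 18 immediate early genes, which respond within minutes to stimuli and to tissue handling, 13 were higher and 2 lower in untreated than in control flanks at day 5. Fos rose by 2.02 (SE 0.35, adjusted p = 1.1e-06) and Ccn1 by 1.80 (SE 0.34, adjusted p = 9e-06), and Atf3 (-0.71) and Jun (-0.60) fell. With G6 2 were higher and 1 lower, and with DC101 none was called. Of all genes, 27.7% were higher in untreated than in control flanks at day 5. With G6 16.6% were higher and 14.9% lower than in untreated flanks, and with DC101 11.8% changed. Klf2 and Klf4 can also respond early, and the part of handling in their values was not tested.

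Other marker lists at day 5 in untreated against control flanks had 7 of 9 mural cell genes higher, 2 of 7 fibroblast genes higher and 4 lower, 4 of 4 neutrophil genes higher, 2 of 6 lymphatic genes higher and 2 lower, 5 of 6 muscle genes lower, and none of 7 hair genes called. Of all genes, 52.4% changed and 27.7% were higher in this comparison. The lymphatic genes Flt4 and Mmrn1 rose, by 3.08 (SE 0.34, adjusted p = 6.06e-12) and 2.02 (SE 0.48, adjusted p = 0.00032), and Reln (-1.04) and Pdpn (-0.68) fell.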
